A study of Caenorhabditis elegans with 12 samples.

Results

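The effect of the 5MER peptide on worms that express human Aβ without interruption was read from 6 of the 12 RNA-seq libraries of the study, 3 of the untreated group (EV0S) and 3 of the peptide-treated group (EVPS), which were chosen by their labels and compared across all 19089 listed genes. The study asked whether a short peptide derived from human CD44 alters gene expression in worms challenged by an aggregating human protein. All animals were of strain CL2006, which carries a minigene for human Aβ under the *unc-54* promoter together with the marker plasmid pRF4, the carrier of a dominant *rol-6* allele. The study describes the transgene as expressed in body wall muscle, whereas RNA came from pools of whole worms. EV0S and EVPS animals were raised on bacteria that carry the empty RNAi vector, and their parents had been raised on the same bacteria. From day 1 of adulthood the EV0S animals received M9 buffer and the EVPS animals received the 5MER peptide, first by soaking and then every day on the plate. Both were moved to new plates daily to remove progeny and were collected at day 6 of adulthood. AB0S and ABPS animals were handled in the same way, without and with the peptide, on bacteria that silence Aβ by RNAi. The labels give the genotype as WT beside the strain name, and they give neither the dose of the peptide nor the number of worms in a pool.

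The germline makes up a large share of an adult hermaphrodite. Its nuclei divide, pass through meiosis and supply the oocytes with maternal RNAs that steer the first cell fates of the embryo, and most of the genes it uses lie on the autosomes because the X chromosome is largely silent in germ cells. Of the somatic tissues, the hypodermis secretes cuticle collagens and hedgehog-related proteins, and the intestine makes yolk and stores and breaks down fat. A whole-worm library adds all of these, and a fall in the RNA of a tissue can come from fewer cells or from less RNA per cell, which cannot be told apart here.

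Values are normalized counts on a linear scale, corrected by the authors for the 3 repeats. They summed to between 24082771 and 29142841 per library, and the depth behind them is unknown. Among the 6 libraries compared, EV0S repeat 3 stood apart from its group before any comparison. In the 15516 genes whose mean reached 10, EV0S repeats 1 and 2 differed by 0.08 in the median on the log2 scale, but repeat 3 differed from them by 0.30 and 0.27, whereas the EVPS repeats differed from each other by 0.08 to 0.13. In EV0S repeat 3 the summed level of the 173 cuticle collagens was 311836, against 739943 and 721462 in repeats 1 and 2. The sum of 43 sarcomere genes of body wall muscle was 287839 against 444515 and 437726, and that of 32 major sperm protein genes was 6473 against 17052 and 17528. In all 3 sums this library lay nearer to the AB0S libraries, which had collagen sums of 277756 to 358039, sarcomere sums of 296238 to 314518 and sperm protein sums of 4749 to 5330. Its score on the leading principal component (54.5% of the variance) was 25.05, against -36.8 and -33.9 for EV0S repeats 1 and 2 and 36.1 to 44.9 for AB0S. The ABPS libraries, which enter the same fit, were also spread, with scores of -3.97, 26.3 and -24.2 in repeats 1, 2 and 3. The labels were kept as given, and why EV0S repeat 3 lies near AB0S was not tested. It is 1 of the 3 untreated libraries in every difference between EVPS and EV0S, and the counts and lists that change with it are given with this library and without it.

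With all libraries more genes rose than fell with the peptide, and without EV0S repeat 3 fewer rose (1262) than fell (1371). In a limma fit of log2(value + 1) over all 12 libraries, with the repeat number as a block, 1399 genes (7.33%) passed an adjusted p below 0.1. Of these, 1051 genes (5.51% of those tested) were higher in EVPS and 348 (1.82%) were lower. The rises had a median log2 fold change of 0.26, and 1009 of the 1051 were under 0.5. The falls had a median of -0.55 and ranged from -2.22 to -0.19. The difference had the same sign in all 3 same-numbered pairs for 1398 of the 1399 genes. As these genes were chosen by that difference, this count and the next describe them and are not separate support. The repeat numbers were not shown to pair the libraries. The EVPS and EV0S values did not overlap for all 1051 genes that rose and for 345 that fell, while over all genes tested 14.9% were higher and 12.4% lower in EVPS without overlap. The median of all genes was -0.05 on this scale, both with all libraries and without EV0S repeat 3, with 8097 of 19089 genes above 0, and this is the value to set beside each list median below.

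**Figure D1:**
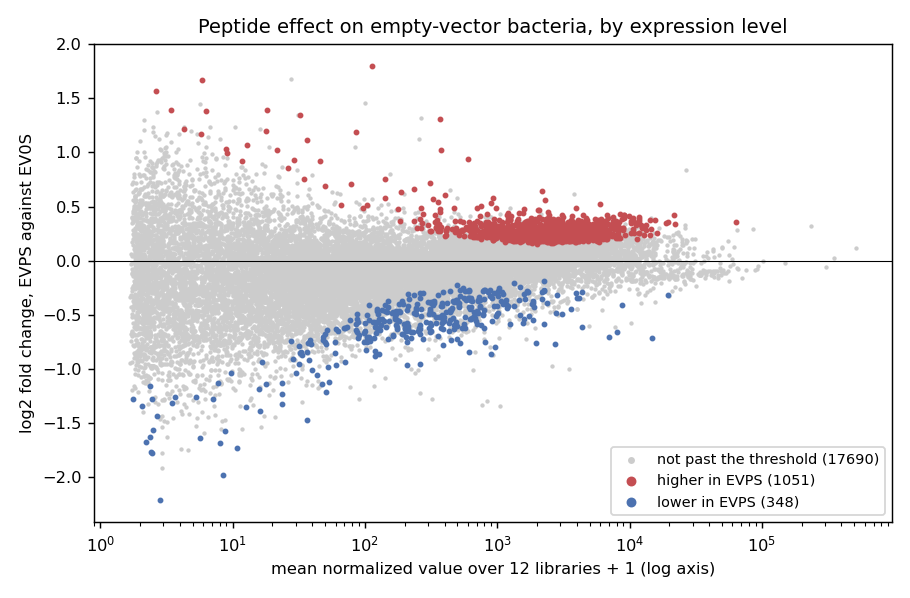
Each point is a gene, with its mean normalized value over 12 libraries on a log axis and the log2 fold change of EVPS against EV0S, coloured by whether it passed the limma threshold. The 1051 genes that rose form a band of small changes at high levels, and the 348 that fell lie at lower levels and spread further from 0.

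How many genes passed depended on single libraries. Leaving out EV0S repeat 1, EV0S repeat 2, EVPS repeat 1, EVPS repeat 2 or ABPS repeat 1 left 0 genes past the limma threshold, with 4212, 3061, 2346, 2785 and 3289 genes at an unadjusted p below 0.05. Without EVPS repeat 3, ABPS repeat 2 or AB0S repeat 3 the count was 684, 683 or 468. Without EV0S repeat 3 it was 2633 (13.8%), of which 1262 rose (6.61% of all genes) and 1371 fell (7.18%). The direction of the called genes was followed over fits of the same values, which is a description, as their p chose them. Of 1051 genes that rose, 955 kept their direction with an unadjusted p below 0.05 in all 22 other fits of the full table. Of the 348 that fell, 336 did so. Over all genes tested 1485 (7.78%) met that condition, and 1291 of these were the called genes themselves. Without EV0S repeat 3, 935 of the 1051 were again called higher and 265 of the 348 again called lower.

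The 11 lists counted together below cover germline, nuclear and apoptosis genes, and in each of them members rose and 0 fell. They were grouped with results of these data known, so the 0 describes the choice of lists and is not separate support. A list of 35 kinesin, dynein and centrosome genes was left out, of which 2 rose (5.71%) and 0 fell. A list of 53 histone genes was not among the 11 either. In it 1 gene rose and 2 fell (1.89% and 3.77%, against 5.51% and 1.82% of all genes). Of 38 genes of oocytes and the early embryo, 17 rose (44.7%, against 5.51% of all genes) and 0 fell. For *spn-4*, a maternal RNA-binding protein that sets early blastomere fates (chromosome V, 6783187 to 6784903 of WBcel235), the values in repeats 1, 2 and 3 were 19049, 19363 and 18589 in EV0S and 26317, 26454 and 23566 in EVPS. Every treated library was above every untreated one, and EVPS repeat 3 was the lowest of the treated. The log2 fold change of *spn-4* was 0.42 (SE 0.07, limma adjusted p = 0.051), which is 1.34-fold. The maternal regulators *pos-1*, *mex-6* and *mex-3*, which bind RNA in the early embryo, rose by 0.34, 0.36 and 0.33. The values of *pos-1* were 17003, 16699 and 16233 in EV0S and 21644, 21685 and 20069 in EVPS. In EV0S repeat 3, *mex-6* and *mex-3* were lower than in repeats 1 and 2, but the groups did not overlap for either. The list median was 0.25, with 36 of 38 genes above 0, and it was 0.18 with 18 genes called higher without EV0S repeat 3.

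Genes of meiosis, cell division and DNA replication moved the same way. Of 46 meiosis genes 16 rose (34.8%), of 57 cell cycle and mitosis genes 14 rose (24.6%), and of 40 DNA replication genes 11 rose (27.5%), against 5.51% of all genes. In each list 0 fell (limma, with 0 genes of these lists lower even at an unadjusted p below 0.05). Their medians were 0.21, 0.17 and 0.15, and without EV0S repeat 3 they were 0.16, 0.12 and 0.09 with 16, 16 and 8 genes higher. The zinc finger gene *zim-2*, which pairs homologous chromosomes in meiosis, had values of 1440, 1518 and 1477 in EV0S and 1931, 1944 and 1809 in EVPS. This is a log2 fold change of 0.36 (SE 0.05, limma adjusted p = 0.051), and without EV0S repeat 3 it was 0.37. The pairing gene *zim-1* rose by 0.29, *prom-1*, an F-box gene needed for homolog pairing, by 0.36, and *rmh-1*, which takes part in the processing of crossovers, by 0.37. The groups stood apart for all of these, and *zim-1* and *zim-2* each share exon positions with another gene on the same strand. Among cell cycle genes, *cdc-25.3* rose by 0.32, the mitotic kinase *air-1* by 0.26, *wee-1.3*, a kinase that holds oocytes in meiotic arrest, by 0.30 and the cyclin *cye-1* by 0.31. The origin recognition subunit *orc-5* (0.26), the DNA ligase *lig-1* (0.28), *mcm-10* (0.23) and the clamp loader subunit *rfc-1* (0.21) were the members of the replication list with the smallest p.

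P granules are the RNA-rich bodies of germ cells. Of 30 of their components 7 rose (23.3%, against 5.51% of all genes), with a median of 0.18 that was 0.07 without EV0S repeat 3, and 8 rose then. The largest of these changes was that of *gld-3*, a cofactor of a cytoplasmic poly(A) polymerase, with values of 8948, 9052 and 7795 in EV0S and 11880, 11859 and 10545 in EVPS, a log2 fold change of 0.41 (SE 0.07, limma adjusted p = 0.051). The granule proteins *meg-1*, *meg-2* and *meg-3* rose by 0.36, 0.37 and 0.32, and all 3 were lowest in EV0S repeat 3. Without that library their changes were 0.30, 0.28 and 0.24. These *meg* genes lie on the X chromosome, and *meg-1* and *meg-2* are also on the oocyte list.

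Of 51 genes of small RNA pathways 13 rose (25.5%, against 5.51% of all genes), and 0 fell (limma, 0 lower at an unadjusted p below 0.05). *sid-1*, the channel that imports double-stranded RNA and makes RNAi systemic (chromosome V, 5119970 to 5126916), was 1920, 1980 and 1854 in EV0S and 2958, 2989 and 2550 in EVPS. Its log2 fold change was 0.56 (SE 0.08, limma adjusted p = 0.051) and 0.54 without EV0S repeat 3. The groups were well apart, and EVPS repeat 3 was again the lowest of the treated libraries. *rde-11*, an RNAi factor, rose by 0.39, the exonuclease *eri-1*, which limits RNAi, by 0.28, and the nucleotidyltransferase *mut-2*, which tails RNAi targets, by 0.27. The animals of both groups ate bacteria with an RNAi vector, in EV0S and EVPS without a worm target. The list median was 0.12, and it was 0.07 without EV0S repeat 3, with 13 then called higher and 2 lower.

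Chromatin and transcription genes rose in different shares. Of 65 chromatin regulators 16 rose (24.6%) and 0 fell (limma, 1 lower at an unadjusted p below 0.05), with a median of 0.16. Of 76 Mediator and RNA polymerase II factors 10 rose (13.2%) and 0 fell (limma, 0 lower at an unadjusted p below 0.05), with a median of 0.09. Among all genes 5.51% rose. The histone demethylase *rbr-2* changed most among the first. Its values were 5030, 5219 and 4905 in EV0S and 7511, 7716 and 6616 in EVPS, a log2 fold change of 0.52 (SE 0.10, limma adjusted p = 0.051). The retinoblastoma homolog *lin-35* rose by 0.30, the histone deacetylase *hda-3* by 0.28 and *mes-3*, a partner in the Polycomb-like complex of the germline, by 0.26. In the Mediator kinase module *cdk-8* rose by 0.37, and the Mediator subunit *mdt-27*, the general factor *gtf-2E1* and the cyclin T homolog *cit-1.1* rose by 0.31, 0.30 and 0.33. Of 63 splicing factors 5 rose, among them *mog-1* (0.25) and *rnp-1* (0.22), and the list median was 0.06, 0.01 without EV0S repeat 3 and -0.02 under quantile normalization. The groups did not overlap for any of the transcription genes named. Of 40 nuclear pore and transport genes 3 rose, *ima-1* (0.28), *xpo-3* (0.27) and *npp-22* (0.20). The shares of the splicing (7.94%) and nuclear pore (7.50%) lists that rose were near the 5.51% of all genes. They were below the share of strongly expressed genes, of which 873 of 5048 with a mean value of at least 1000 rose.

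Counted once each, the 518 genes of these lists and of the apoptosis list below held 117 that rose (22.6%, against 5.51% of all genes) and 0 that fell (limma, 3 lower and 239 higher at an unadjusted p below 0.05). These lists are strongly expressed, with mean log2 levels of 9.15 to 13.7 in EV0S repeat 1, against 7.09 over all genes. At levels of 1000 to 10000, 843 of all 4589 genes rose, a larger share than 5.51%. The 5.51% is thus no baseline for genes of this level, here or for the single lists. The part of level in these shares was not tested. The median of the 518 genes was 0.15. Without EV0S repeat 3, 114 were called higher and 3 lower, with a median of 0.10, against -0.05 for all genes. Levels of other tissues moved with these rises. Against EV0S repeats 1 and 2, the summed collagens and sarcomere genes were lower in all EVPS libraries, and against EV0S repeat 3 they were higher, and their part in the rise of the germline lists was not tested.

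**Figure D2:**
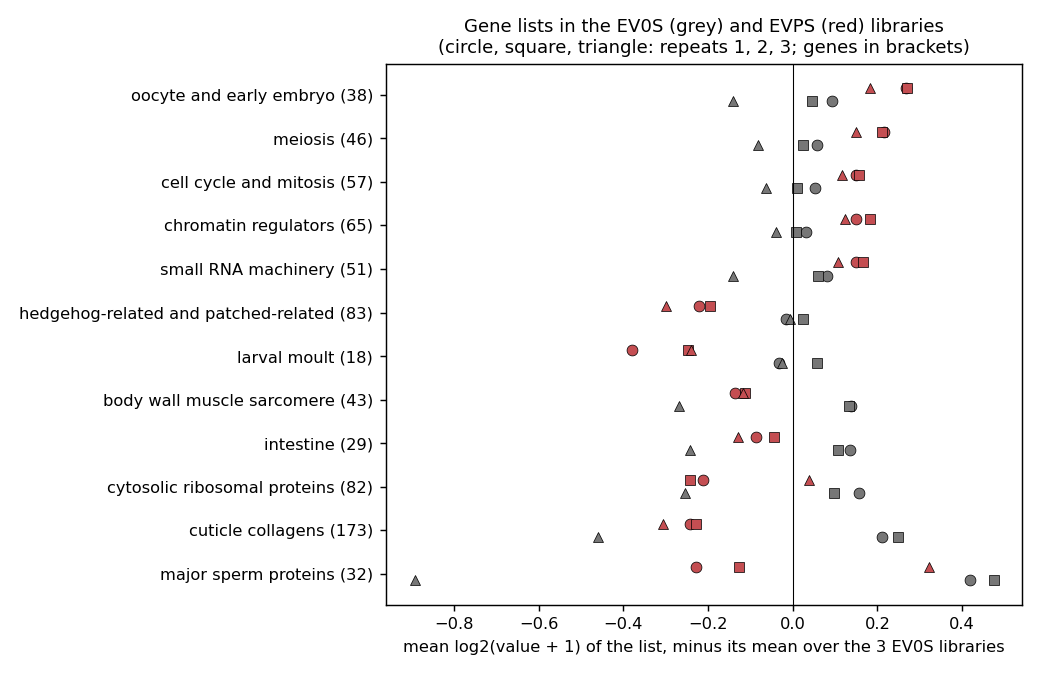
Each point is a library and gives the mean log2(value + 1) of a gene list minus its mean over the 3 EV0S libraries, in log2 units, with EV0S in grey, EVPS in red and the number of genes in brackets. In the 5 germline and nuclear lists at the top all EVPS libraries lie to the right of all EV0S libraries, and in the lists at the bottom EV0S repeat 3 lies far to the left of the other EV0S repeats.

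Markers of later stages and of sperm gave other values. Of 23 genes switched on in the embryo itself 2 rose, the T-box gene *tbx-9* (0.27) and the homeobox gene *pal-1* (0.22), and the list median was -0.33, or -0.09 without EV0S repeat 3. Of 96 genes of sperm formation and activation 1 rose, *spe-48* (0.25), and the median was 0.00, or -0.28 without EV0S repeat 3, where 6 rose and 3 fell. None of the 32 major sperm protein genes passed the test (limma, 0 at an unadjusted p below 0.05), and their median was -0.03 with all libraries but -0.69 without EV0S repeat 3, with 3 then called lower. The summed level of the sperm protein genes was 10393, 11446 and 15366 in EVPS.

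A few signaling genes rose beside them. Of 29 genes of the insulin/IGF pathway and of longevity 5 rose (17.2%, against 5.51% of all genes) and 0 fell (limma, 3 lower at an unadjusted p below 0.05). The list median was 0.11. The mean log2 level of the list was 11.1 in EV0S repeat 1, and 843 of all 4589 genes at levels of 1000 to 10000 rose. The part of level in the share of this list was not tested. The heat shock factor *hsf-1* (chromosome I, 11953507 to 11963085) had values of 3148, 3243 and 3111 in EV0S and 4031, 4165 and 3833 in EVPS, a log2 fold change of 0.34 (SE 0.06, limma adjusted p = 0.051). Its value without EV0S repeat 3 was 0.32. The kinase *akt-1* rose by 0.28 and the PI3K adaptor *aap-1* by 0.22. The insulin/IGF receptor gene *daf-2*, named after its values were seen, rose by 0.33. *daf-16*, the FOXO factor downstream, was 4690, 4757 and 4523 in EV0S and 5585, 5573 and 4995 in EVPS, without overlap, and did not pass (0.21, SE 0.07, limma adjusted p = 0.125). *skn-1*, the Nrf factor, did not pass either (0.22, limma adjusted p = 0.116), nor did *pqm-1* (-0.19, limma adjusted p = 0.200) or the TOR kinase gene *let-363* (0.18, limma adjusted p = 0.383).

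Few textbook targets of these factors passed with all libraries. Of 27 targets of DAF-16, *dod-3* rose (0.64) and *icl-1*, which encodes the glyoxylate cycle enzymes, fell (-0.41), with a list median of 0.01. Without EV0S repeat 3, 7 of the 27 were called lower (25.9%, against 7.18% of all genes) and 1 higher, with a median of -0.07. The *icl-1* values were 9849, 9681 and 10200 in EV0S and 6673, 6862 and 9107 in EVPS, so that EVPS repeat 3 lay close to the untreated libraries. Of 23 targets of SKN-1, *cyp-14A3* alone passed.

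Of 30 genes of programmed cell death and corpse engulfment 8 rose (26.7%, against 5.51% of all genes) and 0 fell (limma, 2 lower at an unadjusted p below 0.05). The median of 0.14 was the same to 2 decimals in the fit without EV0S repeat 3, where 7 rose and 1 fell. The 8 include the caspase *ced-3* (0.35), the engulfment receptor *ced-1* (0.27) and its partners *ced-6* (0.28) and *ced-7* (0.39), and *ced-12* (0.24), which acts in the other engulfment branch. *ced-3* was 5271, 5182 and 4711 in EV0S and 6685, 6709 and 5928 in EVPS. In adults, dying germ cells are removed by the sheath cells of the gonad through these genes.

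Of 28 autophagy genes 3 rose and 1 fell (10.7% and 3.57%, against 5.51% and 1.82% of all genes). *atg-18*, which binds phosphoinositides on forming autophagosomes, was 4099, 4165 and 4319 in EV0S and 5155, 5303 and 4868 in EVPS, a log2 fold change of 0.28 (SE 0.05, limma adjusted p = 0.051). *epg-4* and *epg-8* rose by 0.36 and 0.22, and *atg-2*, the lipid transfer partner of *atg-18*, fell by 0.19 with an adjusted p at the edge of the threshold (0.0997). The list median was 0.02. Among 62 lysosomal genes, the mucolipin channel *cup-5* (0.29), the V-ATPase subunit genes *vha-18* (0.24) and *vha-7* (0.32) and the amino acid exporter *laat-1* (0.19) rose, whereas the membrane protein gene *lmp-2* (-0.60) and the glucocerebrosidase gene *gba-4* (-0.59) fell. These were 6.45% and 3.23% of the lysosomal list, against 5.51% and 1.82% of all genes. *gba-4* shares exon positions with 3 genes on its own strand, so its value is uncertain. With EV0S repeat 3 left out, 29 of the 62 lysosomal genes were called lower (46.8%, against 7.18% of all genes).

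The largest rises in size were of single genes. *cyp-14A3*, a cytochrome P450 gene on the X chromosome (13271837 to 13274202), had values of 53.98, 49.1 and 53.8 in EV0S and 198, 162 and 197 in EVPS. The treated libraries were all far above the untreated ones, and the log2 fold change was 1.801 (SE 0.21, limma adjusted p = 0.047), or 1.88 without EV0S repeat 3. *asm-3*, an acid sphingomyelinase (chromosome IV, 520214 to 523809), was 253, 190 and 200 in EV0S and 505, 443 and 660 in EVPS. The groups did not overlap, and the change was 1.31 (SE 0.24, limma adjusted p = 0.051). Both share exon positions with genes on the other strand, and whether reads were counted by strand is not stated.

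Of 78 cytochrome P450 genes 5 rose (6.41%) and 1 fell (1.28%), *cyp-13B1* (-0.75), and the list median was -0.03. These shares were near the 5.51% and 1.82% of all genes. Besides *cyp-14A3* the risers named by the rule were *cyp-34A7* (1.07), *cyp-14A2* (0.75) and *cyp-25A1* (0.71). *cyp-14A2* was 131, 142 and 75.7 in EV0S and 186, 192 and 190 in EVPS, and its change was 0.47 without EV0S repeat 3, the lowest of its group. The glucuronosyltransferase *ugt-15* (1.12), the short-chain dehydrogenase *dhs-26* (1.02) and the carboxylesterase *cest-1.1* (0.71) also rose, but 0 of 49 glutathione transferases passed (limma, 2 lower and 0 higher at an unadjusted p below 0.05). H39E23.3 rose by 1.19 and F42A10.7 by 0.94. *bath-11*, a gene of the MATH and BTB domain family, rose by 0.92. Of that family 6 of 102 genes rose (5.88%, near the 5.51% of all genes), *bath-7* (0.57), *bath-15* (0.30) and *bath-40* (0.21) among them, and *math-7*, listed at values under 3 in all EV0S and EVPS libraries, fell by 1.28.

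By p the leading risers were genes with little spread between repeats. Y4C6A.3 was 720, 784 and 777 in EV0S and 1192, 1175 and 1041 in EVPS (0.58, SE 0.07, limma adjusted p = 0.047). F08F8.4 rose by 0.44, F02H6.2 by 0.49, T21C9.13 by 0.40 and T28D9.4 by 0.35. *fbxa-215*, an F-box gene, rose by 0.38 from 4676, 4827 and 4768 to 6360, 6273 and 5954. *mans-4*, an alpha-mannosidase gene, rose by 0.39, and the thaumatin-like gene *thn-2*, a family linked to pathogen responses, by 0.64. For *thn-2* the values were 1765, 1741 and 1605 in EV0S and 2496, 2518 and 2989 in EVPS, with EVPS repeat 3 the highest.

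**Figure D3:**
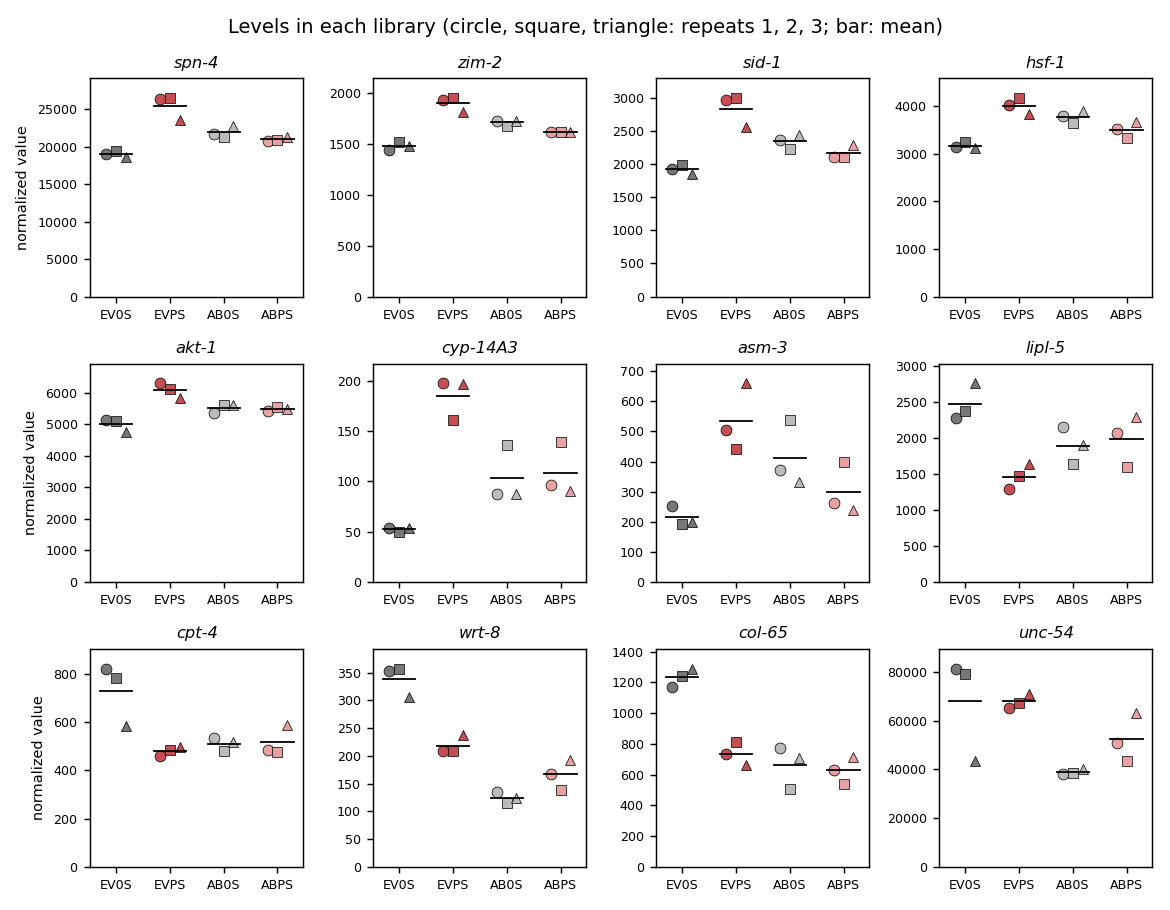
Normalized values of 12 genes in each library, by group, with repeats 1, 2 and 3 as circle, square and triangle and the group mean as a bar, on axes that start at 0. The EVPS libraries lie above the EV0S libraries for the first 7 genes and below them for the next 4, and for unc-54 EV0S repeat 3 lies far below its own group.

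Genes that fell were of other kinds. Of 98 genes of lipolysis, fatty acid binding and beta-oxidation 7 fell (7.14%, against 1.82% of all genes) and 0 rose (limma, 6 higher at an unadjusted p below 0.05), with a median of -0.10. *lipl-5*, a lysosomal lipase (chromosome V, 385746 to 387740), was 2281, 2371 and 2762 in EV0S and 1286, 1468 and 1639 in EVPS. This is a log2 fold change of -0.76 (SE 0.12, limma adjusted p = 0.051), or -0.74 without EV0S repeat 3. *cpt-4*, a carnitine palmitoyltransferase gene, was 822, 784 and 584 in EV0S and 459, 486 and 498 in EVPS, so the groups stood apart with EV0S repeat 3 between them (-0.59, SE 0.13, limma adjusted p = 0.060). The acyl-CoA synthetase *acs-17* fell by 0.27 and the enoyl-CoA hydratase *ech-7* by 0.37. Of 20 desaturases and elongases *elo-2*, which lengthens palmitate, fell by 0.34, and *elo-5*, which makes branched-chain fatty acids, fell by 0.44. These were 10% of that list, against 1.82% of all genes. The acyl-CoA binding protein *acbp-3* fell by 0.62 from 455, 436 and 506 to 277, 304 and 327. *mxl-3*, a bHLH repressor of lipase genes, fell too, by 0.63, from 1048, 1047 and 723 to 577, 553 and 675. When EV0S repeat 3 was left out, 29 of the 98 lipid genes were called lower (29.6%, against 7.18% of all genes) and 2 higher.

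Of 83 hedgehog-related and patched-related genes 8 fell (9.64%, against 1.82% of all genes) and 0 rose (limma, 3 higher at an unadjusted p below 0.05). These proteins are secreted or displayed by the hypodermis and act in moulting and in the cuticle. *wrt-8* had values of 354, 357 and 307 in EV0S and 209, 209 and 237 in EVPS (-0.63, SE 0.13, limma adjusted p = 0.054). *hog-1* was 142, 134 and 170 in EV0S and 78.9, 89.7 and 94.4 in EVPS (-0.75, SE 0.13, limma adjusted p = 0.051). *wrt-1* fell by 0.76 and *grl-15* by 0.45, and the list median was -0.26, or -0.32 with 17 genes lower without EV0S repeat 3. Of 18 genes of the larval moult *noah-2* (-0.50) and *mlt-9* (-0.51) fell (11.1%, against 1.82% of all genes). Of the 18, 0 had a log2 fold change above 0, against 8097 of all 19089 genes. The cuticlin gene *cut-2* fell by 0.77.

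Of 173 cuticle collagens 6 fell (3.47%, against 1.82% of all genes) and 0 rose (limma, 2 higher at an unadjusted p below 0.05). *col-65* was 1169, 1241 and 1290 in EV0S and 737, 811 and 660 in EVPS (-0.75, SE 0.15, limma adjusted p = 0.051), and *col-115*, *dpy-3* and *dpy-7* fell by 0.70, 0.62 and 0.52. In *dpy-3* and *dpy-7* EV0S repeat 3 was the highest of the untreated libraries, opposite to its place in the summed collagens. For the list as a whole the library decided the picture. Its median was -0.25 with all libraries, and without EV0S repeat 3 it was -0.64 with 81 genes called lower (46.8%, against 7.18% of all genes). The summed collagen level was 435812, 418469 and 542633 in EVPS, below EV0S repeats 1 and 2 and above repeat 3.

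The same library weighed on 4 further lists of abundant transcripts. Of 82 cytosolic ribosomal protein genes 0 passed with all libraries (limma, 2 lower at an unadjusted p below 0.05) and 74 were lower without EV0S repeat 3, with medians of -0.13 and -0.28. Of 54 genes of oxidative phosphorylation 0 passed (1 lower and 1 higher at an unadjusted p below 0.05) and 34 were lower, with medians of -0.10 and -0.26. Of 29 intestinal genes 1 fell (3.45%, against 1.82% of all genes), *eps-8* (-0.35), and 16 were lower without the library. Of 43 sarcomere genes 4 fell (9.30%) and 33 were lower without it. The shares lower without it were 90.2%, 63.0%, 55.2% and 76.7% in these lists, in the order given, against 7.18% of all genes.

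The 4 muscle genes that fell with all libraries were *lim-8* (-0.42), *pat-6* (-0.28), *unc-95* (-0.27) and the troponin I gene *tni-1* (-0.37), and the first 3 encode proteins of the attachments that anchor the sarcomere to the cell membrane. *pat-6* was 1079, 1099 and 1067 in EV0S and 834, 889 and 947 in EVPS. *unc-54*, the main body wall myosin heavy chain and the source of the promoter of the transgene, was 81501, 79388 and 43596 in EV0S and 65469, 67516 and 70981 in EVPS. The groups overlapped only through EV0S repeat 3, with a log2 fold change of 0.05 (SE 0.22, limma adjusted p = 0.942) that became -0.31 (SE 0.11, limma adjusted p = 0.070) without that library. *rol-6*, a cuticle collagen of which pRF4 carries copies, was 9579, 9440 and 7109 against 7305, 7527 and 8002 (-0.18, limma adjusted p = 0.395), and -0.35 (limma adjusted p = 0.009) without it. The Aβ precursor homolog *apl-1* did not pass (-0.18, limma adjusted p = 0.277).

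**Figure D4:**
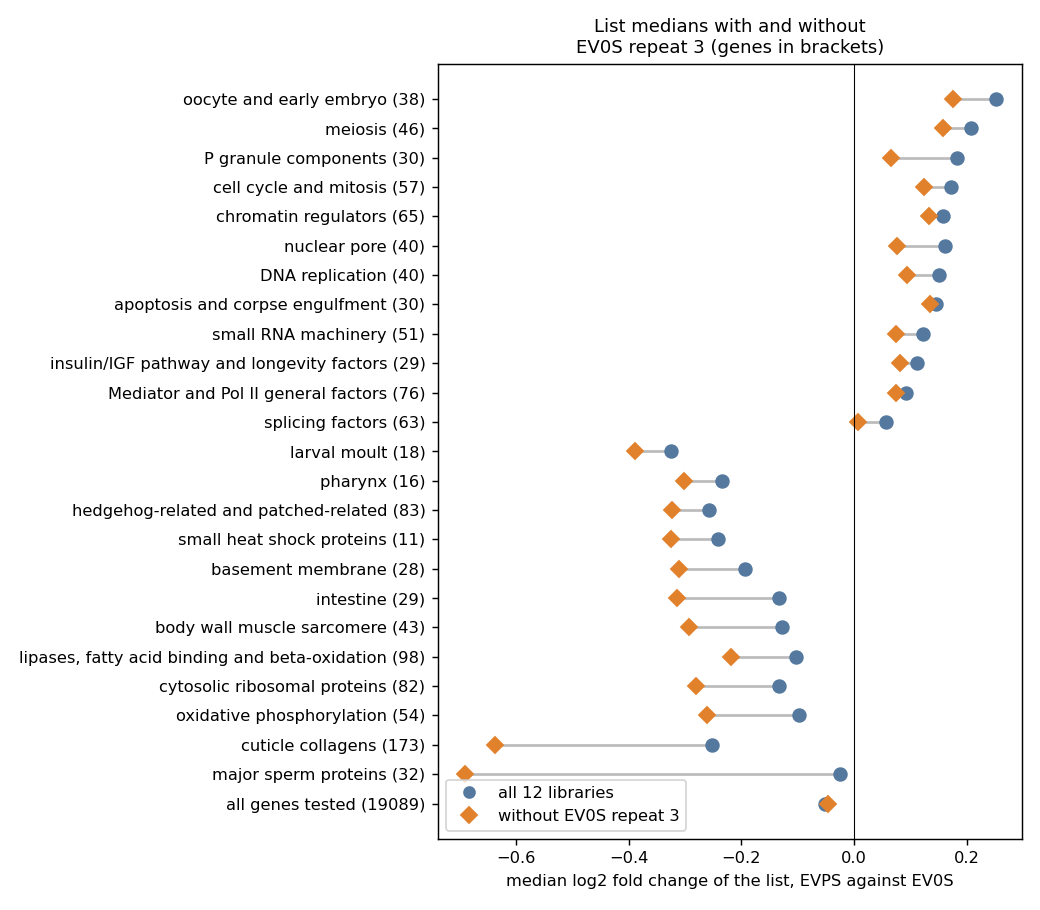
Median log2 fold change of EVPS against EV0S for 24 gene lists and for all genes, from the fit of all 12 libraries (circles) and from the fit without EV0S repeat 3 (diamonds), with the number of genes in brackets. The germline and nuclear lists stay above 0 in both fits, and the medians of collagens and of major sperm proteins move from -0.25 to -0.64 and from -0.03 to -0.69.

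Some protein-folding genes passed with all libraries, and more were lower without EV0S repeat 3. Of 11 small heat shock proteins 2 fell (18.2%, against 1.82% of all genes) and 0 rose (limma, 0 higher at an unadjusted p below 0.05). The list median was -0.24, with 1 of 11 above 0. Their summed level went the other way. It was 61631, 59598 and 56150 in EV0S and 63500, 63303 and 65559 in EVPS, higher in every treated library. *hsp-16.41* was 1273, 1604 and 2378 in EV0S and 828, 877 and 1116 in EVPS (-0.86, SE 0.22, limma adjusted p = 0.074), with EV0S repeat 3 the highest library and -0.59 without it. *hsp-12.2* fell by 0.37. *hsp-16.2* was 834, 851 and 795 in EV0S and 555, 561 and 800 in EVPS. Its EVPS repeat 3 lay among the untreated libraries, and it did not pass (-0.39, limma adjusted p = 0.151). Of 14 larger chaperones 0 passed (limma, 2 lower at an unadjusted p below 0.05), with a median of -0.03. In the fit without EV0S repeat 3, 6 of the 11 small heat shock proteins (54.5%), 5 of the 14 larger chaperones (35.7%, median -0.20) and 14 of the 75 co-chaperones (18.7%) were called lower, against 7.18% of all genes. Of 75 co-chaperone and chaperonin genes *dnj-5*, *dnj-8*, *dnj-11* and *cyn-4* rose, by 0.30, 0.19, 0.20 and 0.19, and *dnj-24*, *cyn-6* and *unc-23* fell, by 0.42, 0.27 and 0.40. These were 5.33% and 4% of the list, against 5.51% and 1.82% of all genes. *dnj-24* was 610, 603 and 577 in EV0S and 455, 440 and 442 in EVPS. Among 29 genes of the unfolded protein response the sensor *ire-1* rose by 0.34 and the degradation factor *sel-1* by 0.18. *dve-1*, a homeobox factor of the mitochondrial response, fell by 0.46. These were 6.90% and 3.45% of that list, against the same shares of all genes. *txt-13* fell from 73.1, 67.8 and 68.9 to 38.4, 44.7 and 50.3 (-0.65, SE 0.17, limma adjusted p = 0.074), and the cyclophilin *cyn-17* did not pass (-0.51, limma adjusted p = 0.103). The receptor gene *nhr-181* rose by 0.48, the gene T01D1.8 fell by 1.13, and the Wnt gene *lin-44* had overlapping groups (-0.15, limma adjusted p = 0.824).

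By p the leading fallers were Y51F10.7, C29F7.2 and F15B9.8. C29F7.2 was 479, 448 and 484 in EV0S and 307, 320 and 319 in EVPS, a log2 fold change of -0.58 (SE 0.07, limma adjusted p = 0.047). Y51F10.7 fell by 0.51, F15B9.8 by 0.66, Y43F8B.2 by 0.57, R12E2.15 by 0.85 and the formin gene *exc-6*, which acts in the excretory canal, by 0.52. F59A1.11 fell by 1.98 from values of 10.5, 10.3 and 9.90 to 1.14, 2.78 and 1.86, near the bottom of the scale, where the pseudocount understates the change. Among genes with a group mean of at least 50 the largest falls were those of F46F3.3 (-1.22), B0334.13 (-1.14), W02F12.8 (-1.12), T08G5.3 (-1.05) and F52G3.5 (-1.01), followed by *fipr-13* (-0.98), F18E3.13 (-0.97), *fipr-4* (-0.97), R12C12.10 (-0.96) and R02E4.3 (-0.95). The *fipr* genes encode small secreted peptides, and in *fipr-4* the EV0S values were 77.2, 72.8 and 140, so that EV0S repeat 3 alone was high and the change was -0.69 without it (limma adjusted p = 0.148). Of 145 neuropeptide and insulin-like genes *ins-11* (-1.69) and *flp-20* (-0.75) fell, 1.38% of the list against 1.82% of all genes.

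The genes that rose and those that fell differed in where they lie and how strongly they are expressed, properties that the test did not use to choose them, although its power depends on level. Of the 1051 genes that rose, 32 (3.04%) were on the X chromosome, which holds 13.9% of all genes tested, and 293 (27.9%) were on chromosome I, which holds 15.1%. Of the 348 that fell, 98 (28.2%) were on the X chromosome and 35 (10.1%) on chromosome I. The shares also differed at 1 range of levels. Among genes with a mean value between 1000 and 10000, which includes 843 of the genes that rose, 13 of 389 on the X chromosome rose (3.34%), against 15.97% to 25.13% of those on each autosome. The median log2 fold change of all X-linked genes was -0.15, and that of the autosomes was between -0.08 and 0.01. Without EV0S repeat 3, 2.30% of X-linked genes were higher and 11.2% lower, against 5.01% to 11.2% and 6.48% to 6.64% on the autosomes. The genes that rose had a median mean value of 2231 and a median exon length of 1858 bases, the genes that fell 307 and 1294, and all genes 137 and 1230.

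**Figure D5:**
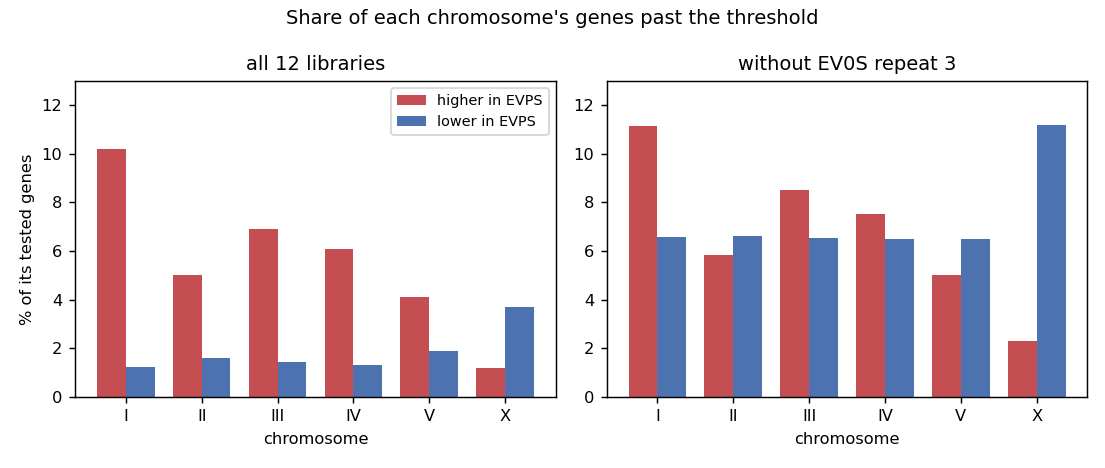
Percentage of the tested genes of each chromosome that were higher (red) or lower (blue) in EVPS at a limma adjusted p below 0.1, with all 12 libraries on the left and without EV0S repeat 3 on the right. Among the 6 nuclear chromosomes, X has in both panels the lowest share of higher genes and the highest share of lower genes.

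At low Aβ most of the genes that rose at high Aβ did not rise with the peptide. Most of those that fell were below 0 there too, with a smaller median change. Between ABPS and AB0S 0 genes passed (limma, 3034 at an unadjusted p below 0.05), and the genes that rose on empty-vector bacteria had a median log2 fold change of -0.06 there, with 192 of the 1051 above 0. The genes that fell had a median of -0.07, with 216 of the 348 below 0. Over all genes the median at low Aβ was -0.02, with 8906 of 19089 above 0. The difference between the 2 peptide effects passed for 569 genes (2.98%), among them 413 that rose and 51 that fell on empty-vector bacteria. As those genes were chosen by 1 of the 2 effects compared, their share is a description. For *spn-4* the values were 21675, 21267 and 22740 in AB0S and 20814, 20952 and 21325 in ABPS, between those of EV0S and EVPS. *sid-1* was 2362, 2227 and 2430 in AB0S and 2101, 2110 and 2292 in ABPS, and *cyp-14A3* was 87.3, 136 and 87.4 against 96.9, 139 and 90.6. For all of them both groups at low Aβ lay between the 2 groups at high Aβ. The median of the oocyte list was 0.01 at low Aβ and that of the 518 germline and nuclear genes -0.01, whereas those of the collagens and of the major sperm proteins were 0.68 and 1.18. The summed sperm protein levels of AB0S were between 4749 and 5330, below every library of the other groups, and those of ABPS ranged widely, from 6233 to 17470.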

How the data were processed

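Whole-worm poly(A) RNA of 12 CL2006 pools was sequenced by the authors as stranded, single-end libraries. Per the labels the reads were trimmed with cutadapt 2.10, aligned to WBcel235 with TopHat2 2.1.1, counted with HTSeq 2.01 and normalized with DESeq2 1.36.0. What the authors deposited are normalized counts, adjusted for the 3 repeats by a method that is not given in the sources used here. They are linear, are not whole numbers, and 307 of 229068 are below 0 (lowest -0.64), so no count test was used and depth is unknown. All 12 value columns were used, with 0 others left unused. The p-values rest on 1 estimate of spread per gene, shared by the 12 libraries of the 4 groups after the repeat block and moderated by eBayes. They do not rest on the spread of EV0S and EVPS alone. With only those 6 libraries 0 genes passed with the block and 1 without it. The study describes the 3 repeats as independent.

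Negative values were replaced by 0. The linear model on log2(value + 1) was run in limma 3.58.1 under R 4.3.3 (group and repeat number, eBayes with trend), with Benjamini-Hochberg adjustment over all 19089 genes. The repeat number was kept in the model because the authors corrected for it. For genes of low level this scale gives too small a fold change. The code was tested on simulated data. Positions came from the Ensembl 115 annotation of WBcel235, which held 19085 of the genes, and 80 of the 237 named genes share exon positions with another gene, so their values are uncertain. Of those in the text, F02H6.2, F59A1.11, *ced-12*, *dnj-24*, *eps-8*, *gba-4*, *noah-2*, *rnp-1*, *unc-17*, *zim-1* and *zim-2* share them on the same strand. Summaries and plots used Python 3.11.15, pandas 2.3.3, numpy 2.4.6 and matplotlib 3.10.9.

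Named genes were, for rises and falls separately, the 10 of lowest p that passed with 1 direction in all 3 pairs, the 10 in each direction with the largest change at a group mean of at least 50, up to 4 passing members of each list in each direction by p with its most abundant member, and fixed sets of genes from the study and of transgene-related genes. The text describes a part of the genes that this rule names, and the others are not reported here. The 57 gene lists were written by hand, and the members, lists and tests were chosen with earlier results of these data known. Alternatives were other pseudocounts (0.1 and 5), filters (mean of at least 1 or 10), TMM and quantile scaling, negative values kept, other eBayes settings, an adjusted p below 0.05, no block, only the 6 libraries compared, and each library left out.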

Additional observations from a re-analysis of the deposited data

Results flagged for a closer look

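The peptide effect at high Aβ and at low Aβ differed for 569 genes in the limma interaction test at an adjusted p below 0.1, and for these the difference itself is what was tested. Values below are the log2 effect at high Aβ minus that at low Aβ. Among genes that rose with the peptide at high Aβ it was 1.78 for *asm-3*, 1.73 for *cyp-14A3*, 1.53 for F42A10.7, 1.52 for *bath-11*, 0.76 for *nhr-181*, 0.73 for Y4C6A.3, 0.67 for *sid-1*, 0.62 for F02H6.2, 0.62 for *thn-2*, 0.57 for T21C9.13, 0.51 for F08F8.4, 0.47 for *mans-4*, 0.46 for *fbxa-215*, 0.45 for *hsf-1* and 0.44 for T28D9.4. Among genes that fell it was -2.45 for F59A1.11, -1.99 for *fipr-13*, -1.28 for F18E3.13, -1.24 for W02F12.8, -0.92 for R12E2.15, -0.82 for Y51F10.7, -0.82 for *lipl-5*, -0.65 for Y43F8B.2, -0.57 for *dnj-24* and -0.51 for C29F7.2. For *rol-6*, which did not pass at high Aβ, it was -0.69. No gene passed at low Aβ by itself in limma (3034 at an unadjusted p below 0.05). The ABPS repeats differed from each other in summed major sperm protein level, between 6233 and 17470, and the part of that in these differences was not tested. The count of 569 was 4908 without EV0S repeat 3, 850 without EVPS repeat 3, 583 without ABPS repeat 3 and 0 when any of EV0S repeat 1 or 2, EVPS repeat 1 or 2, AB0S repeat 1, 2 or 3, or ABPS repeat 1 or 2 was left out.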

How the results depend on the processing

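The 1399 genes that passed between EVPS and EV0S were 1362 and 1426 with pseudocounts of 0.1 and 5, 1399 with values below 0 kept, 1422 and 1798 with a mean of at least 1 and 10, 1880 with TMM factors, 1423 with robust eBayes, 605 under quantile normalization (490 shared, in the same direction), 4 at an adjusted p below 0.05, and 0 with eBayes without a trend (3328 at an unadjusted p below 0.05). Leaving out 1 library gave 0 to 2633 genes. The 569 genes with differing peptide effects became 909 with a mean of at least 10, 1304 with TMM factors, 922 under quantile normalization, 0 at an adjusted p below 0.05, 0 without the trend (2794 at an unadjusted p below 0.05), and 0 to 4908 with 1 library left out.

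The replicate block changed the counts. Without it 2490 genes passed, 1397 of them among the 1399, and 1785 had differing effects. With only the 6 libraries compared, 0 passed with the block (3165 at an unadjusted p below 0.05) and 1 without it. Deviations of same-numbered EV0S and EVPS libraries from their group means had correlations of -0.10, -0.15 and -0.11 across genes, which are not independent replicates, so the numbers were not shown to pair the libraries, and the correction for repeats acts on the same values. The higher share of calls was 75.1%, and 68.3% without the block.

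Alternatives chosen after seeing the data left out EV0S repeat 3. Without the block 3270 genes passed and 5546 had differing effects. Under quantile normalization 2465 passed, of which 64.7% rose against 47.9% on the deposited scale, and 5198 had differing effects. Of 176 named genes that passed, 0 turned direction in any alternative, and 158 passed without EV0S repeat 3. Of the genes named in the text, those that passed with all libraries but not without it were F52G3.5, *atg-2*, *cyn-4*, *dnj-11*, *dve-1*, *fipr-4*, *math-7*, *noah-2*, *npp-22*, *php-3* and *skr-19*, with limma adjusted p of up to 0.148. *unc-54*, which did not pass with all libraries, turned to -0.31, and ranged from -0.31 to 0.24 with 1 library left out. Causes were not tested.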

Other observations

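Among transcription factors and ubiquitin-related genes some rose and some fell, in shares near those of all genes for the second list. Of 138 homeobox, bHLH, T-box and GATA factors 6 rose and 5 fell (4.35% and 3.62%, against 5.51% and 1.82% of all genes). The onecut gene *ceh-38* was 3780, 3712 and 3957 in EV0S and 4695, 4660 and 4146 in EVPS, a log2 fold change of 0.24. *ceh-91* rose by 0.29, while the TEAD factor *egl-44* (-0.30) and the Hox gene *php-3* (-0.42) fell. For *php-3* the change was -0.31 without EV0S repeat 3 (limma adjusted p = 0.118). The list median was -0.27 with all libraries and -0.07 without EV0S repeat 3. Of 56 ubiquitin-conjugating, cullin and Skp1-related genes *ubc-25* (0.23), *ubc-16* (0.19) and *uev-3* (0.25) rose and *skr-19* fell (-0.38), which is 5.36% and 1.79% of the list against 5.51% and 1.82% of all genes.

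Among 98 lysozymes, saposins and antimicrobial peptide genes 3 rose and 4 fell (3.06% and 4.08%, against 5.51% and 1.82% of all genes). The saposin-like gene *spp-9* rose from 5.47, 10.6 and 12.35 to 23.2, 23.5 and 29.3, and *spp-13* fell from 161, 182 and 212 to 139, 116.1 and 107. The groups did not overlap for either. Of 196 C-type lectin genes 1 passed, *clec-145*, which was 177, 165 and 173 in EV0S and 293, 299 and 230 in EVPS (0.66, SE 0.15, limma adjusted p = 0.059).

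Among 33 neuronal genes *tdc-1*, the tyrosine decarboxylase of tyramine and octopamine synthesis, which is also made in gonadal sheath cells, rose from 7127, 6664 and 6033 to 8116, 8416 and 7875. *unc-76*, which acts in axon growth, rose by 0.21 (SE 0.05, limma adjusted p = 0.078). *unc-17*, the vesicular acetylcholine transporter gene, fell from 155, 148 and 160 to 96.3, 104.8 and 114.6, and shares exon positions with another gene on its strand. The list median was -0.20, with 4 of 33 above 0, and without EV0S repeat 3 it was -0.12, with 9 of 33 above 0. Over all genes 8097 of 19089 were above 0 with all libraries. The neuronal genes that rose and fell were 6.06% and 3.03% of the list, against 5.51% and 1.82% of all genes.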
